A study of Rattus norvegicus with 50 samples.

Results

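Rats that had inhaled nickel subsulfide at 0.60 mg/m3 for 4 weeks were compared with rats that had inhaled 0.15 mg/m3 for the same time, to see what the step between the highest concentrations adds to the response of the lung. The comparison held 10 of the 50 arrays of the study, the 5 labelled 0.60 mg/m3 and the 5 labelled 0.15 mg/m3 at 4 weeks, and was taken across every probe set with 1 gene symbol, 19063 of 31042. These stood for 13438 genes, each read from 1 probe set (the brightest on average where there were several). All animals were male Fischer 344 rats, 7 to 8 weeks old on receipt, kept under the same conditions apart from the aerosol. The tested concentrations of nickel subsulfide (Ni3S2, a poorly soluble nickel compound) equal 0.44 and 0.11 mg of nickel per m3. Rats breathed the aerosol 6 hours daily, 5 days weekly, which made 20 exposure days by 4 weeks. The rest of the study held 0.08 and 0.04 mg/m3 and unexposed controls at 4 weeks, and all 5 concentrations, 0 included, at 1 week, with 5 arrays in each group. Each array held RNA of 1 rat, from micro-dissected distal airway and alveolar tissue of the right caudal lobe, which the labels call broncho-alveolar cells. The 5 rats were those with the best RNA of 8, and 50 to 150 ng of RNA was labelled by a 3' in vitro transcription kit.

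Poorly soluble nickel particles stay in the alveoli and are taken up by resident macrophages. Injured cells and loaded macrophages release chemokines, among them CCL2, which draw monocytes out of the blood into the lung, where they mature into macrophages that secrete proteases and osteopontin. Interferons released in inflamed tissue act through cell surface receptors on many genes, which often carry a short element with repeated GAAA in their promoters. Club cells, secretory cells that line the small airways of rodents, hold most of the lung's cytochrome P450 and glutathione transferase enzymes.

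Levels below are log2 intensities as deposited, so a difference of 1 is a 2-fold change. Every difference is 0.60 minus 0.15 mg/m3 at 4 weeks unless another is named, given with the standard error (SE) of a limma model of all 50 arrays. A gene was called at a Benjamini-Hochberg adjusted p under 0.05 over the 13438 genes. The spread behind the SE comes from all groups of the study. A gene without a call was not shown to be unchanged, and some of these genes had groups that did not overlap. Group means are given with the SD over 5 rats. All tests were two-sided. The separate rats of a group are the replicates, and their number limits the precision: the median SE over all genes was 0.11 and the smallest difference called was 0.19.

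Defining markers of lung epithelium were present in both groups. Surfactant protein Sftpc of type 2 cells was at 13.61 ± 0.03 at 0.60 mg/m3 against 13.54 ± 0.08 at 0.15 mg/m3, Scgb1a1 of club cells at 13.56 ± 0.06 at 0.60 mg/m3 against 13.60 ± 0.04 at 0.15 mg/m3 and Ager of type 1 cells at 11.04 ± 0.17 at 0.60 mg/m3 against 10.98 ± 0.18 at 0.15 mg/m3, none of them called. Sftpc and Scgb1a1 lie near the top of the scale of the array, and the wider lists of type 2 and club cells, given below, held called genes and had means that did not overlap. Over the 10 arrays the first principal component took 33.7% of the variance and set the groups apart, at 5.90 to 15.9 in the 0.60 mg/m3 rats and -14.9 to -8.80 in the 0.15 mg/m3 rats. The second took 16.8%, with replicate 2 of 0.15 mg/m3 at 19.6, away from all others. Fat and heart muscle, which dissection can bring along, were measured by marker lists: the mean of 15 adipocyte genes ran from 6.20 to 7.42 at 0.60 mg/m3 and from 6.25 to 8.44 at 0.15 mg/m3, and that of 20 heart muscle genes from 6.25 to 7.55 at 0.60 mg/m3 and from 6.94 to 7.70 at 0.15 mg/m3. The ranges overlapped, and no heart muscle gene was called. Of the adipocyte genes 1 was (6.67%, against 2.87% of all genes), the lipase Lpl, which macrophages also make. The median difference of the adipocyte list was nevertheless -0.48 and that of the heart muscle list -0.32, with 0 of 15 and 0 of 20 members positive, and the part of these tissues in the results below was not tested. In whole tissue, fewer cells of a type and less RNA per cell cannot be told apart.

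Of the 13438 genes, 385 were called, or 2.87%: 257 were higher at 0.60 mg/m3 (1.91%) and 128 lower (0.953%). At an unadjusted p under 0.05 there were 1750. All 5 arrays of one group lay beyond all 5 of the other for 304 of the called genes, 188 above and 116 below. This held for 574 genes above (4.27%) and 430 below (3.20%) among all tested. A change of at least 1.5-fold was met by 178 called genes (1.32%) and one of at least 2-fold by 43, of which 29 were higher. Higher calls made up 66.8% of the calls, but 55.0% (209 of 380) when each array was centred on its median, which moved the median difference of all genes to -0.03 against 0.01 in the deposited values. The 385 calls were 707 in a model of the 10 compared arrays alone and 1360 with array weights. Without replicate 5 of 0.60 mg/m3 the count was 249, the lowest of the 10 counts with 1 array left out. The 0.15 mg/m3 group itself had moved away from the 4-week controls at 470 genes (3.50%), 258 higher (1.92%) and 212 lower (1.58%). That comparison shares the 0.15 mg/m3 arrays with this one, so its values are given beside those below as levels of the series and not as a separate test.

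**Figure D1:**
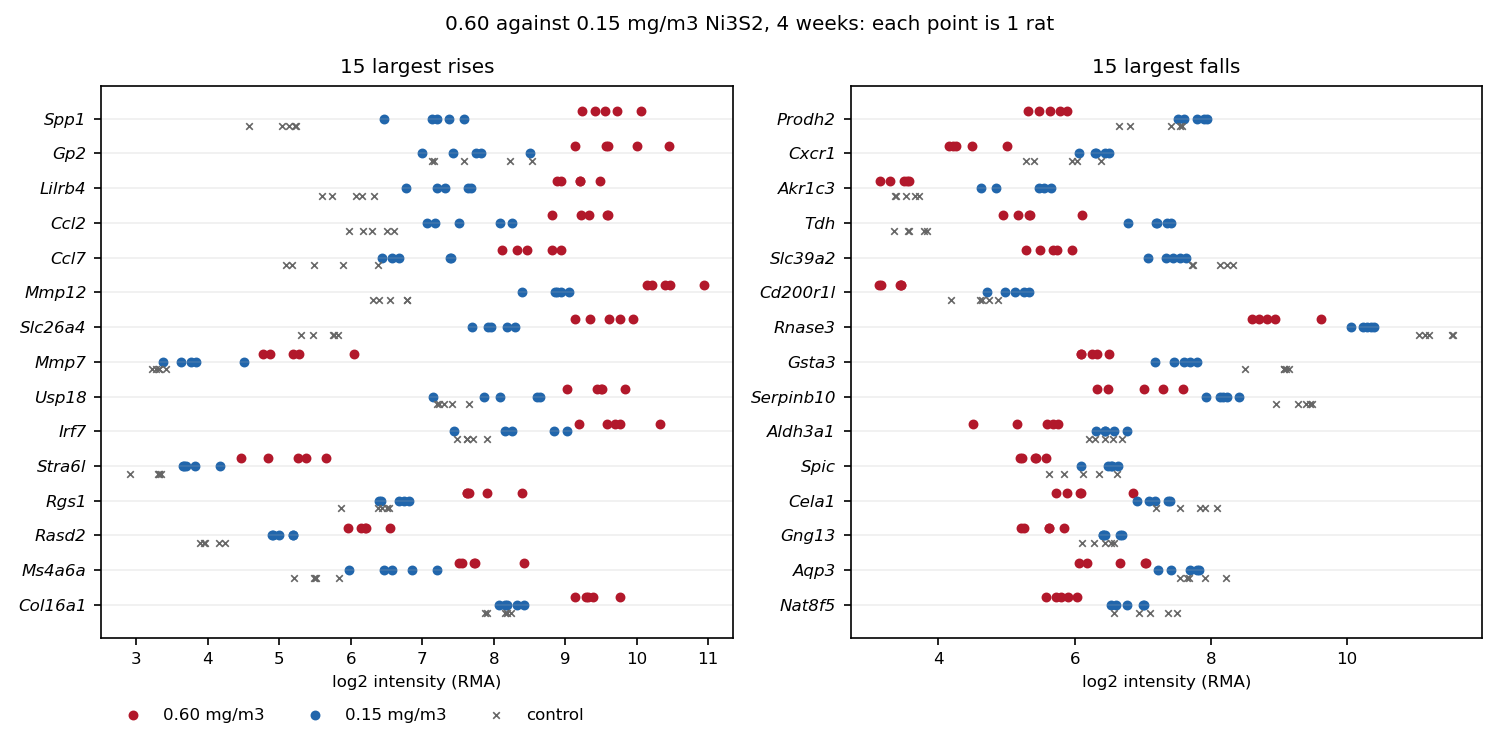
Log2 intensity of each rat at 4 weeks (horizontal axes) for the 15 largest rises (left) and the 15 largest falls (right) of 0.60 against 0.15 mg/m3, with 0.60 mg/m3 in red, 0.15 mg/m3 in blue and unexposed controls as grey crosses. Red and blue points of a gene do not overlap, as the choice of the genes requires, and at Akr1c3 and Tdh the blue points lie above both the red points and the controls.

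The largest rise in the comparison was that of osteopontin. Spp1, which encodes this secreted adhesion protein of activated macrophages, was at 9.56, 9.42, 10.06, 9.23 and 9.73 in the 0.60 mg/m3 rats, against 7.20, 7.37, 7.59, 6.47 and 7.14 in the 0.15 mg/m3 rats. Even the lowest of the 0.60 mg/m3 rats lay well above the highest at 0.15 mg/m3. The difference was 2.45 ± 0.30 (5.45-fold, adjusted p = 3.87e-07), on top of a difference of 2.11 between 0.15 mg/m3 and the controls, which stood at 5.05 ± 0.27. Lilrb4, an inhibitory receptor of monocytes and macrophages, was at 9.20, 8.94, 9.49, 8.88 and 9.20 in the 0.60 mg/m3 rats, against 7.21, 7.68, 7.64, 6.77 and 7.32 in the 0.15 mg/m3 rats, again without overlap, a difference of 1.82 ± 0.23 (adjusted p = 4.44e-07). Mmp12, the macrophage elastase, was at 10.47, 10.21, 10.94, 10.14 and 10.40 in the 0.60 mg/m3 rats, against 9.05, 8.86, 8.94, 8.88 and 8.39 in the 0.15 mg/m3 rats. Its difference of 1.60 ± 0.27 (adjusted p = 0.000152) followed one of 2.26 between 0.15 mg/m3 and control, so the concentration range from 0 to 0.60 mg/m3 spanned 3.87 log2 units.

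These belonged to a list of 23 genes of monocytes and recruited macrophages, of which 7 were higher and 0 lower. The share called was 30.4%, against 2.87% of all genes, and the median difference was 0.26 against 0.01 over all genes. The mean of the list ran from 8.13 to 8.55 in the 0.60 mg/m3 rats, from 7.65 to 7.90 in the 0.15 mg/m3 rats and from 7.21 to 7.51 in the controls, with no overlap between any of the groups. Vcan, the proteoglycan versican of monocytes, rose by 0.77 ± 0.18 (adjusted p = 0.00917) and the monocyte antigen Ly6c by 0.77 ± 0.15 (adjusted p = 0.00124). The complement subunit C1qb rose by 0.66 ± 0.16 (adjusted p = 0.0102), a call lost without replicate 5 of the 0.60 mg/m3 rats (0.55, adjusted p = 0.0671) or without replicate 2 of the 0.15 mg/m3 rats (0.53, adjusted p = 0.064). Receptors that also mark these cells gave no call: Ccr2, the CCL2 receptor, was dim in both groups at 3.62 ± 0.20 at 0.60 mg/m3 against 3.57 ± 0.11 at 0.15 mg/m3, the growth factor receptor Csf1r was at 9.19 ± 0.22 at 0.60 mg/m3 against 9.14 ± 0.10 at 0.15 mg/m3, and the lipid receptor Trem2 was at 6.62 ± 0.43 at 0.60 mg/m3 against 6.60 ± 0.25 at 0.15 mg/m3. Other genes of immune cells were among the largest rises. Rgs1, a brake on chemokine receptor signals, rose by 1.23 ± 0.16 (adjusted p = 5.86e-07), and Ms4a6a, a membrane protein of monocytes and macrophages, by 1.17 ± 0.22 (adjusted p = 0.000465).

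Lysosome and lipid-handling genes of macrophages moved in part: 6 of 26 were higher and 1 lower (26.9% called, against 2.87% of all genes), with a median of 0.14. The apolipoprotein Apoe rose by 0.59 ± 0.12 (adjusted p = 0.00195), with 0.60 mg/m3 at 10.76 ± 0.15 and 0.15 mg/m3 and control both at 10.16. The lysosomal glycoprotein Cd68 rose by 0.60 ± 0.15 (adjusted p = 0.0136), which was lost without replicate 3 of the 0.60 mg/m3 rats (0.48, adjusted p = 0.0949) or replicate 5 of 0.15 mg/m3 (0.52, adjusted p = 0.0718). Lipoprotein lipase, Lpl, went the other way, at 9.70, 9.90, 9.98, 9.79 and 9.58 in the 0.60 mg/m3 rats, against 10.33, 10.70, 10.52, 10.48 and 10.21 in the 0.15 mg/m3 rats (difference -0.66 ± 0.15, adjusted p = 0.00576). Lpl is also in the adipocyte list, and the part of fat in its fall was not tested. The count of higher lysosome and lipid-handling genes was 2 without replicate 3 of 0.60 mg/m3 and 3 without its replicate 5 or without replicate 1 or 5 of 0.15 mg/m3.

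Genes of resident alveolar macrophages split. Among 13 list members 2 were higher and 2 lower (30.8% called, against 2.87% of all genes), and the median was -0.23. The mean of the list ran from 8.05 to 8.37 at 0.60 mg/m3 and from 7.99 to 8.56 at 0.15 mg/m3. Plet1, a surface protein of these cells in mice, fell by 0.81 ± 0.17 (adjusted p = 0.00175) and the lipid-sensing nuclear receptor Pparg, on which their maturation depends, by 0.62 ± 0.18 (adjusted p = 0.0467), a call lost without any 1 of 8 of the 10 arrays. Replicate 2 of 0.15 mg/m3, which had the highest adipocyte mean (8.44), was 1 of the 8. The part of fat in the fall of Pparg was not tested. Il1rn, the interleukin 1 receptor antagonist, rose by 0.67 ± 0.13 (adjusted p = 0.000953). The mannose receptor Mrc1 was at 9.34 ± 0.23 at 0.60 mg/m3 against 9.67 ± 0.10 at 0.15 mg/m3 and was not called. Spic, a transcription factor of tissue macrophages, was among the 15 largest falls at 5.43, 5.20, 5.41, 5.22 and 5.58 in the 0.60 mg/m3 rats, against 6.49, 6.63, 6.54, 6.55 and 6.09 in the 0.15 mg/m3 rats, without overlap (difference -1.09 ± 0.22, adjusted p = 0.00195).

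Chemokine genes divided by kind. Of 31 measured, 5 were higher and 2 lower (22.6% called, against 2.87% of all genes). Ccl2 was at 9.22, 9.33, 9.60, 8.82 and 9.59 in the 0.60 mg/m3 rats, against 7.07, 8.25, 8.08, 7.18 and 7.52 in the 0.15 mg/m3 rats, and Ccl7, which acts on the same receptor, at 8.32, 8.47, 8.94, 8.12 and 8.82 in the 0.60 mg/m3 rats, against 6.57, 7.40, 7.39, 6.43 and 6.68 in the 0.15 mg/m3 rats. In both genes every rat at 0.60 mg/m3 lay above every rat at 0.15 mg/m3, and within 0.15 mg/m3 replicates 2 and 3 were the highest. The differences were 1.69 ± 0.23 (adjusted p = 1.91e-06) and 1.64 ± 0.27 (adjusted p = 0.000121), after differences of 1.31 and 1.29 between 0.15 mg/m3 and control. Cxcl10 and Cxcl9, interferon-induced attractants of T cells, rose by 1.17 ± 0.29 (adjusted p = 0.0127) and 0.84 ± 0.21 (adjusted p = 0.0136). Their groups overlapped: Cxcl10 was at 7.07, 7.07, 6.80, 5.67 and 7.42 in the 0.60 mg/m3 rats, against 5.20, 6.72, 6.69, 4.36 and 5.20 in the 0.15 mg/m3 rats. The Cxcl10 call was lost without replicate 5 of 0.60 mg/m3 or without replicate 1, 4 or 5 of 0.15 mg/m3 (0.85 to 1.06, adjusted p = 0.0557 to 0.0929), and that of Cxcl9 without replicate 5 of either group (0.67 to 0.74, adjusted p = 0.0689 to 0.0938). The falling members were Ccl6 and Ccl9, chemokines that rodent macrophages release without stimulation. Ccl6 was at 11.02, 10.87, 11.34, 11.24 and 11.13 in the 0.60 mg/m3 rats, against 12.16, 11.91, 12.13, 12.09 and 11.76 in the 0.15 mg/m3 rats, with no overlap and the 0.15 mg/m3 rats at the control mean of 12.07 ± 0.21, and its difference was -0.89 ± 0.17 (adjusted p = 0.000875); its other probe set gave -1.79. Ccl9 fell by 0.81 ± 0.17 (adjusted p = 0.00321). The neutrophil attractant Cxcl1 and the macrophage chemokine Ccl3 were not called, at 9.92 ± 0.16 at 0.60 mg/m3 against 9.54 ± 0.16 at 0.15 mg/m3 and at 7.05 ± 0.20 at 0.60 mg/m3 against 6.90 ± 0.23 at 0.15 mg/m3. The count of higher chemokines was 3 without replicate 5 of 0.60 mg/m3 or without replicate 4 or 5 of 0.15 mg/m3.

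The widest set of rises was that of interferon-induced genes. Of 43 measured, 24 were higher and 0 lower (55.8% called, against 2.87% of all genes), all 43 differences were positive, and the median was 0.50. The mean of the list was 8.17, 8.29, 8.03, 7.80 and 8.56 in the 0.60 mg/m3 rats, against 7.41, 7.76, 7.91, 7.15 and 7.50 in the 0.15 mg/m3 rats, and 7.09 to 7.31 in the controls. The lowest rat at 0.60 mg/m3 thus lay below the highest at 0.15 mg/m3. All 5 arrays at 0.60 mg/m3 lay above all 5 at 0.15 mg/m3 for 17 of the 43 genes, against 4.27% of all genes. Between 0.15 mg/m3 and control 5 of the 43 were higher, against 1.92% of all genes, with a median of 0.29. The spread among the 0.15 mg/m3 rats was wide, replicate 4 being lowest and replicate 3 highest, and the number of calls turned on single rats: it was 11 without replicate 5 of 0.60 mg/m3, 13 without replicate 4 of 0.15 mg/m3 and 15 without its replicate 1.

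Irf7, the transcription factor that amplifies interferon production, was at 9.70, 9.76, 9.59, 9.19 and 10.33 in the 0.60 mg/m3 rats, against 8.16, 8.84, 9.02, 7.44 and 8.26 in the 0.15 mg/m3 rats. No rat at 0.60 mg/m3 was as low as any at 0.15 mg/m3, and the difference was 1.37 ± 0.22 (adjusted p = 5.08e-05). Usp18, the protease that strips the ubiquitin-like protein ISG15 from its targets and damps receptor signals, was at 9.50, 9.51, 9.44, 9.03 and 9.83 in the 0.60 mg/m3 rats, against 7.87, 8.60, 8.64, 7.15 and 8.09 in the 0.15 mg/m3 rats, a difference of 1.39 ± 0.21 (adjusted p = 2.1e-05). Both calls stood without any 1 array. Mx1, a GTPase that blocks influenza viruses in rodents, averaged 8.91 ± 0.48 at 0.60 mg/m3 against 7.63 ± 0.73 at 0.15 mg/m3. Replicates 2 and 3 of 0.15 mg/m3 (8.26 and 8.44) lay above replicate 4 of 0.60 mg/m3 (8.23), the lowest there, and the difference was 1.28 ± 0.27 (adjusted p = 0.00203). The RNA-binding Ifit3 rose by 1.26 ± 0.32 (adjusted p = 0.0158) and the oligoadenylate synthetase-like gene Oasl by 1.15 ± 0.27 (adjusted p = 0.00983), with overlapping groups in both. The Ifit3 call was lost without replicate 5 of the 0.60 mg/m3 rats (1.09, adjusted p = 0.0843) or without replicate 1 (1.16, adjusted p = 0.0612) or replicate 4 (1.02, adjusted p = 0.0867) of 0.15 mg/m3, and that of Oasl without replicate 5 of the 0.60 mg/m3 rats (0.96, adjusted p = 0.0653) or replicate 4 of 0.15 mg/m3 (0.90, adjusted p = 0.0668). Other members were measured without a call: Ifit1 was dim at 3.81 ± 0.10 at 0.60 mg/m3 against 3.60 ± 0.15 at 0.15 mg/m3, the factor Irf1 was at 9.01 ± 0.14 at 0.60 mg/m3 against 8.79 ± 0.05 at 0.15 mg/m3, and the antiviral membrane protein Bst2 was at 10.56 ± 0.22 at 0.60 mg/m3 against 10.29 ± 0.22 at 0.15 mg/m3.

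Since interferon-induced genes share a promoter element, the 300 bases around the start of each gene (250 before and 50 after, RefSeq, rat build GRCr8) were searched for its core, the word GAAA, any 2 bases and GAAA again, and for the same core on the other strand (TTTC, any 2 bases, TTTC). The core was present in 325 of 11057 promoters of tested genes (2.94%), in 26 of 205 of the genes called higher (12.7%) and in 1 of 101 of those called lower (0.99%). The interferon-induced list had it in 22 of 35 promoters (62.9%), and the genes called higher outside that list in 13 of 187 (6.95%). The 13 include Epsti1, a gene of interferon-treated cells, so the list does not hold every gene of this kind. Below are promoters of 4 called members, shown because they carry the core, with each match in capitals and the sequence 5' to 3' on the strand of the gene. The match in Irf7 (chr1:205799974-205800273, minus strand) begins 69 bases before the start, that in Ifit3 (chr1:241527076-241527375, plus strand) 44 bases before it and that in Cxcl10 (chr14:15988816-15989115, plus strand) 243 bases before it, and Oas1b (chr12:41395803-41396102, minus strand), an oligoadenylate synthetase chosen after its values were seen that rose by 0.95 ± 0.20 (adjusted p = 0.00321), has 2 overlapping matches that begin 59 and 53 bases before it.
Irf7: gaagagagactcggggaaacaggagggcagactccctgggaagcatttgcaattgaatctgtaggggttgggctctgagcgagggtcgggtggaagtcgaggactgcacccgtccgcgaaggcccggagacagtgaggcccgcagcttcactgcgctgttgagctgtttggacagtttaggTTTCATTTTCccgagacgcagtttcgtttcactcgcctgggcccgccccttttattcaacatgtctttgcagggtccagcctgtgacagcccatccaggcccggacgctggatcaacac
Ifit3: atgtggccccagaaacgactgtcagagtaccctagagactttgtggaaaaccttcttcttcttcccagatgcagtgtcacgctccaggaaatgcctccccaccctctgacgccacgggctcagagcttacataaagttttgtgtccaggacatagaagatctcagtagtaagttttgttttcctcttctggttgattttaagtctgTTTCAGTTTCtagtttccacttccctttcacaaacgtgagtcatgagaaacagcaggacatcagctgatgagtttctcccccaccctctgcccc
Cxcl10: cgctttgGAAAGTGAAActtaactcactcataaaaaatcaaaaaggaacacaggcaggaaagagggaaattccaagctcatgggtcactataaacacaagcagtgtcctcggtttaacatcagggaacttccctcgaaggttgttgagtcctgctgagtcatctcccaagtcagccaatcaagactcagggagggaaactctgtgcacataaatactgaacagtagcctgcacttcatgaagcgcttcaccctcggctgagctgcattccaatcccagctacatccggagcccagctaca
Oas1b: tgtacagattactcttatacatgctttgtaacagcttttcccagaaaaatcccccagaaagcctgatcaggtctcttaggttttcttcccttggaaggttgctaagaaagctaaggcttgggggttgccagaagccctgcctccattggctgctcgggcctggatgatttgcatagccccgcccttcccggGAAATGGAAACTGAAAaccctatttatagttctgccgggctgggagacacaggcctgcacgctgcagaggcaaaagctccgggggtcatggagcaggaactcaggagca
Irf7 and Ifit3 carry the core as the repeat of TTTC, Cxcl10 and Oas1b as the repeat of GAAA. Of the called members of the list with a promoter searched, 13 of 18 (72.2%) carry the core. Mx1, Oasl and Cxcl9 are among those without a match in this window, and no promoter of Usp18 was searched. A match is a run of letters and not a measured binding site.

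**Figure D2:**
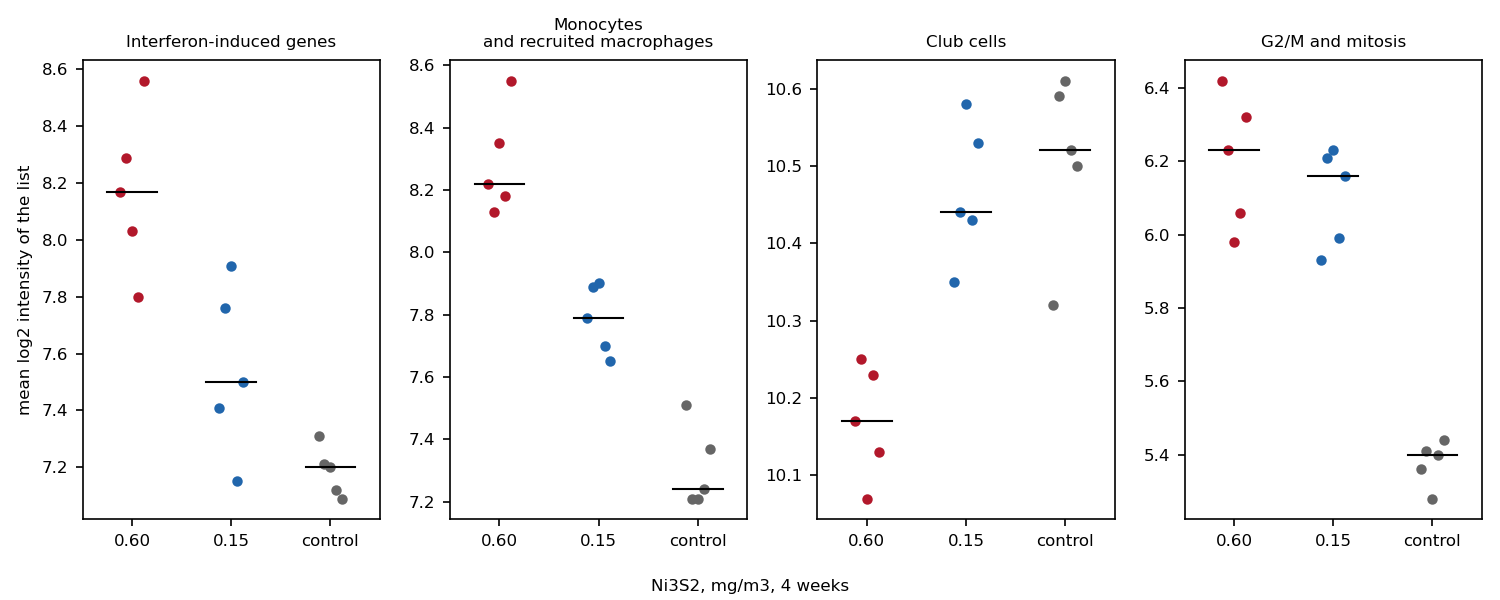
Mean log2 intensity of 4 gene lists in each rat at 4 weeks (vertical axes, 1 point per rat, bar at the group median) at 0.60 mg/m3 (red), 0.15 mg/m3 (blue) and in controls (grey). Monocyte and club cell means do not overlap between 0.60 and 0.15 mg/m3, interferon-induced means overlap by 1 rat at 7.80 against 7.91, and mitosis means overlap at 5.98 to 6.42 against 5.93 to 6.23, both above the controls.

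Antigen presentation genes rose by small amounts. Of 10 genes of MHC class II and costimulation 6 were higher (median 0.37). Of 11 genes of antigen processing and MHC class I 4 were higher (median 0.38), or 2 with arrays centred on their median. With 0 lower in either, the shares called were 60% and 36.4%, against 2.87% of all genes. Cd86, the costimulatory ligand of CD28, was at 5.65, 5.59, 5.92, 5.53 and 6.11 in the 0.60 mg/m3 rats, against 4.78, 5.28, 4.95, 5.11 and 4.84 in the 0.15 mg/m3 rats, without overlap (difference 0.77 ± 0.15, adjusted p = 0.00144). Cd74, the invariant chain that escorts class II molecules, rose by 0.31 ± 0.07 (adjusted p = 0.00756), also without overlap. The class II loading factors RT1-DMa and RT1-DMb rose by 0.55 ± 0.14 and 0.43 ± 0.12, and the immunoproteasome subunits Psmb8 and Psmb9 by 0.39 ± 0.11 and 0.38 ± 0.10 (adjusted p from 0.0145 to 0.0347 over the 4). At 0.15 mg/m3 against control no member of either list was called, where 3.5% of all genes were, and the medians were 0.08 and 0.04. The class II count was 2 without replicate 5 of 0.60 mg/m3 or replicate 2 of 0.15 mg/m3 and 3 without replicate 3 of 0.60 mg/m3, and the class I count was 0 to 2 without any 1 of 7 of the 10 arrays. RT1 genes form a family of near-identical copies whose probe sets can bind each other's RNA. RT1-Ba was called at 0.44 ± 0.11, but its other probe sets gave -0.22 to -0.04.

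Lymphocyte lists had positive medians. The share called was 4.55% of T cell, 15.4% of B cell and 30% of plasma cell genes, against 2.87% of all genes. All 22 T cell genes were positive (median 0.37), but only Cd2, an adhesion receptor, was called (0.68 ± 0.17, adjusted p = 0.0118), and that was lost without replicate 5 of the 0.60 mg/m3 rats (0.60, adjusted p = 0.0651). The coreceptor subunit Cd3e was at 7.52 ± 0.42 at 0.60 mg/m3 against 6.94 ± 0.36 at 0.15 mg/m3 and was not called. Of 13 B cell genes 2 were higher (median 0.47), the receptor subunit Cd79b (1.11 ± 0.30, adjusted p = 0.0252) and the complement receptor Cr2 (1.05 ± 0.30, adjusted p = 0.0375). Cd79b was at 6.36, 6.91, 6.73, 6.42 and 6.96 in the 0.60 mg/m3 rats, against 5.13, 5.53, 5.14, 6.65 and 5.35 in the 0.15 mg/m3 rats, so replicate 4 of 0.15 mg/m3 stood among the 0.60 mg/m3 rats while the others were lower. It was higher still in the lower exposure groups, at 7.24 ± 0.62 at 0.08 mg/m3 and 7.77 ± 0.23 at 0.04 mg/m3, with controls at 6.21 ± 0.32. Of 10 plasma cell genes 3 were higher (median 0.40), led by Jchain, the chain that joins IgA and IgM, at 9.93 ± 0.43 at 0.60 mg/m3 against 9.03 ± 0.50 at 0.15 mg/m3 (difference 0.90 ± 0.24, adjusted p = 0.0234). The B cell count was 0 without replicate 2 or 5 of 0.60 mg/m3 or replicate 1, 3 or 5 of 0.15 mg/m3, and the plasma cell count was 0 without replicate 4 of 0.60 mg/m3 or replicate 1 or 3 of 0.15 mg/m3. No gene of 20 for NK and cytotoxic cells was called, with granzyme Gzmb at 6.42 ± 0.14 at 0.60 mg/m3 against 6.71 ± 0.25 at 0.15 mg/m3.

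Some complement genes rose, and few secreted defence genes did. Of 18 complement genes 4 were higher and 0 lower (22.2% called, against 2.87% of all genes, median 0.24). C2, a protease component of the classical pathway, was at 9.47, 9.29, 9.66, 9.42 and 9.58 in the 0.60 mg/m3 rats, against 8.69, 9.02, 8.96, 8.63 and 8.74 in the 0.15 mg/m3 rats, without overlap, and rose by 0.68 ± 0.11 (adjusted p = 5.42e-05), and factor B, Cfb, of the alternative pathway rose by 0.26 ± 0.06 (adjusted p = 0.0054). The count was 2 without replicate 5 of 0.60 mg/m3, when C1qa (0.42, adjusted p = 0.0613) and C1qb lost their calls. Of 22 genes of the acute phase and secreted defence 2 were higher and 0 lower (9.09% called, against 2.87% of all genes). The median was 0.06 with 13 of 22 positive, and 1 was higher without replicate 5 of 0.60 mg/m3 or replicate 1 or 4 of 0.15 mg/m3. The acute-phase protein Saa3 was at 8.86, 8.59, 8.93, 7.97 and 9.17 in the 0.60 mg/m3 rats, against 7.19, 8.30, 7.72, 6.93 and 7.25 in the 0.15 mg/m3 rats. Replicate 4 of 0.60 mg/m3 lay below replicate 2 of 0.15 mg/m3, while controls were at 4.21 ± 0.17. Saa3 rose by 1.22 ± 0.30 (adjusted p = 0.0133), a call lost without replicate 5 of the 0.60 mg/m3 rats (1.11, adjusted p = 0.0607) or replicate 4 of 0.15 mg/m3 (1.09, adjusted p = 0.0557). Lcn2, which binds bacterial siderophores, rose by 1.02 ± 0.25 (adjusted p = 0.0102), which replicate 1 of 0.15 mg/m3 decided (0.92, adjusted p = 0.0501 without it). Of 29 cytokines and innate signals Il1rn alone was called (3.45%, against 2.87% of all genes). Tumour necrosis factor Tnf was at 5.95 ± 0.43 at 0.60 mg/m3 against 5.50 ± 0.26 at 0.15 mg/m3 and interleukin 1 beta, Il1b, at 8.56 ± 0.11 at 0.60 mg/m3 against 8.26 ± 0.10 at 0.15 mg/m3.

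Neutrophil genes gave opposite calls, 1 of 12 being higher and 1 lower (16.7% called, against 2.87% of all genes). The median was 0.17, with 9 of the 12 positive. Cxcr1, a receptor for neutrophil chemokines, was at 4.26, 4.21, 5.00, 4.49 and 4.16 in the 0.60 mg/m3 rats, against 6.30, 6.32, 6.45, 6.50 and 6.07 in the 0.15 mg/m3 rats. The drop of 1.90 ± 0.24 (adjusted p = 5.86e-07) brought it under the controls, which were at 5.81 ± 0.46, with no overlap between 0.60 mg/m3 and either group. Itgam, the integrin CD11b of neutrophils and macrophages, rose by 0.82 ± 0.13 (adjusted p = 6.1e-05). S100a8 and S100a9, abundant in neutrophils, were not called, at 9.47 ± 0.38 at 0.60 mg/m3 against 9.06 ± 0.23 at 0.15 mg/m3 and at 11.66 ± 0.29 at 0.60 mg/m3 against 11.15 ± 0.23 at 0.15 mg/m3, and Cxcr2 was dim at 3.83 ± 0.12 at 0.60 mg/m3 against 3.72 ± 0.17 at 0.15 mg/m3. Rnase3, of the eosinophil-associated ribonuclease family, was at 9.62, 8.70, 8.60, 8.94 and 8.82 in the 0.60 mg/m3 rats, against 10.40, 10.06, 10.29, 10.23 and 10.35 in the 0.15 mg/m3 rats, without overlap (difference -1.33 ± 0.20, adjusted p = 2.1e-05), below controls at 11.30 ± 0.23. The eosinophil granule genes Epx and Prg2 were dim and not called, at 3.19 ± 0.16 at 0.60 mg/m3 against 3.15 ± 0.11 at 0.15 mg/m3 and at 3.98 ± 0.27 at 0.60 mg/m3 against 3.94 ± 0.11 at 0.15 mg/m3. Rnase3 was the only 1 of 21 eosinophil and mast cell genes called (4.76%, against 2.87% of all genes). Cd200r1l, a CD200 receptor-like gene, was at 3.15, 3.43, 3.45, 3.45 and 3.13 in the 0.60 mg/m3 rats, against 4.98, 5.13, 5.33, 5.25 and 4.71 in the 0.15 mg/m3 rats, a fall of 1.75 ± 0.17 (adjusted p = 9.08e-10) without overlap.

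In the epithelium, some genes of the goblet cell and mucin list rose and some of the club cell list fell. Gp2, a secreted glycoprotein of zymogen granules and M cells, was at 9.60, 10.45, 9.57, 10.01 and 9.14 in the 0.60 mg/m3 rats, against 6.99, 7.82, 7.43, 8.51 and 7.75 in the 0.15 mg/m3 rats. The lowest rat at 0.60 mg/m3 lay above the highest at 0.15 mg/m3, and the difference was 2.05 ± 0.47 (adjusted p = 0.00598), while 0.15 mg/m3 and control did not differ by the test (-0.03, adjusted p = 0.993). Slc26a4, the chloride and bicarbonate exchanger pendrin, was at 9.13, 9.61, 9.95, 9.34 and 9.76 in the 0.60 mg/m3 rats, against 7.96, 8.18, 8.29, 7.92 and 7.69 in the 0.15 mg/m3 rats, a difference of 1.55 ± 0.24 (adjusted p = 2.95e-05) after one of 2.39 from control to 0.15 mg/m3. The membrane mucin Muc1, which is in the type 2 cell list as well, also rose (0.30 ± 0.07, adjusted p = 0.0117). These were the 3 of 16 goblet cell and mucin genes called higher, with 0 lower. The share called was 18.8%, against 2.87% of all genes, and 3 was the count without any 1 array. The mean of the list ran from 6.99 to 7.21 at 0.60 mg/m3, from 6.51 to 6.77 at 0.15 mg/m3 and from 6.04 to 6.56 in controls. The gel-forming mucin Muc5b was at 12.26 ± 0.26 at 0.60 mg/m3 against 11.62 ± 0.17 at 0.15 mg/m3 and, without overlap of the groups, was not called (0.64 ± 0.29, adjusted p = 0.327). Muc5ac stayed dim at 3.75 ± 0.26 at 0.60 mg/m3 against 3.49 ± 0.12 at 0.15 mg/m3. Areg, the EGF receptor ligand amphiregulin, was at 5.22, 5.99, 6.71, 5.57 and 5.83 in the 0.60 mg/m3 rats, against 5.08, 5.09, 5.14, 4.68 and 4.77 in the 0.15 mg/m3 rats, without overlap (difference 0.91 ± 0.20, adjusted p = 0.00429), while the keratins Krt8 and Krt18 of simple epithelium, at 11.05 ± 0.09 at 0.60 mg/m3 against 11.05 ± 0.09 at 0.15 mg/m3 and at 10.63 ± 0.12 at 0.60 mg/m3 against 10.57 ± 0.06 at 0.15 mg/m3, were not called.

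Of 12 club cell genes 5 were lower and 0 higher (41.7% called, against 2.87% of all genes), with a median of -0.23. The mean of the list ran from 10.07 to 10.25 in the 0.60 mg/m3 rats and from 10.35 to 10.58 in the 0.15 mg/m3 rats, which overlapped the controls (10.32 to 10.61). Gsta3, a glutathione transferase, was at 6.10, 6.50, 6.10, 6.33 and 6.25 in the 0.60 mg/m3 rats, against 7.18, 7.80, 7.70, 7.61 and 7.46 in the 0.15 mg/m3 rats, a fall of 1.29 ± 0.18 (adjusted p = 4.32e-06), after a difference of -1.43 from control. Cyp2a3, the cytochrome P450 of rat lung and nose, was at 9.78, 10.10, 9.92, 9.78 and 10.26 in the 0.60 mg/m3 rats, against 10.50, 10.88, 11.25, 10.87 and 11.12 in the 0.15 mg/m3 rats. Its 0.60 mg/m3 rats lay below all at 0.15 mg/m3, by 0.95 ± 0.18 on average (adjusted p = 0.000702). The cytochrome P450 Cyp4b1 fell by 0.48 ± 0.08 (adjusted p = 7.43e-05) and the tight junction protein Cldn10 by 0.47 ± 0.10 (adjusted p = 0.00323). The main secretory product of these cells, Scgb1a1, differed by -0.04 ± 0.04, near the top of the scale of the array. Cyp2f4, another P450 of club cells, did not pass the test (-0.35 ± 0.11, adjusted p = 0.0695) with groups that did not overlap.

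The enzymes that modify foreign compounds fell as a wider group: 9 of 34 were lower and 0 higher (26.5% called, against 2.87% of all genes). Among the 34 differences 3 were positive, and the median was -0.25. Beside the club cell genes Gsta3, Cyp2a3 and Cyp4b1 the 9 included the transferases Gsta1 (-0.48 ± 0.09, adjusted p = 0.000775) and Gstk1 (-0.48 ± 0.10, adjusted p = 0.002) and the monooxygenase Fmo5 (-0.63 ± 0.15, adjusted p = 0.0066). Aldh3a1, an aldehyde dehydrogenase, was at 4.51, 5.16, 5.75, 5.60 and 5.68 in the 0.60 mg/m3 rats, against 6.57, 6.45, 6.44, 6.77 and 6.31 in the 0.15 mg/m3 rats. It fell by 1.17 ± 0.34 (adjusted p = 0.0478) without overlap, but the call was lost without any 1 of the 10 arrays (adjusted p = 0.0544 to 0.178). The count of the list was 6 to 9 with 1 array left out. Targets of the oxidant-response factor NRF2 split, 1 of 24 being higher and 3 lower (16.7% called, against 2.87% of all genes). The cystine importer Slc7a11 rose by 0.77 ± 0.17 (adjusted p = 0.00341), the quinone reductase Nqo1 fell by 0.40 ± 0.08 (adjusted p = 0.00157), and the haem oxygenase Hmox1, at 9.48 ± 0.31 at 0.60 mg/m3 against 9.17 ± 0.10 at 0.15 mg/m3, was not called.

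Among alveolar genes, 18.8% of the type 2 list and 7.14% of the type 1 list were called, against 2.87% of all genes. Of 16 type 2 cell genes 3 were higher, with a median of 0.17 and list means of 11.42 to 11.64 at 0.60 mg/m3 against 11.23 to 11.38 at 0.15 mg/m3, without overlap: Muc1, the surfactant-processing protease Napsa (0.45 ± 0.13, adjusted p = 0.0394) and the lipid pump Abca3 (0.29 ± 0.08, adjusted p = 0.047). With arrays centred on their median Muc1 alone was called, and the Napsa and Abca3 calls were each lost without any 1 of 8 of the 10 arrays. Of 14 type 1 cell genes 1 was lower, the growth factor-binding protein Igfbp2 (-0.61 ± 0.16, adjusted p = 0.0248), lost without any 1 of 6 arrays. Hopx and Aqp5 of these cells were at 12.46 ± 0.10 at 0.60 mg/m3 against 12.37 ± 0.05 at 0.15 mg/m3 and at 10.45 ± 0.10 at 0.60 mg/m3 against 10.47 ± 0.11 at 0.15 mg/m3. No gene of 12 for ciliated cells, of 25 for endothelium, of 19 for fibroblasts or of 19 for smooth muscle was called, and 5 of 25 endothelial differences were positive (median -0.16). Gng13, a G protein gamma subunit of taste and tuft cells, fell without overlap, by 1.02 ± 0.17 (adjusted p = 0.000129), Cela1, a serine elastase, by 1.07 ± 0.23 (adjusted p = 0.00323), and Serpinb10, a protease inhibitor, by 1.24 ± 0.25 (adjusted p = 0.00195).

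The deepest fall of all was in an enzyme of hydroxyproline breakdown. Prodh2 was at 5.64, 5.31, 5.88, 5.78 and 5.48 in the 0.60 mg/m3 rats, against 7.61, 7.79, 7.95, 7.90 and 7.52 in the 0.15 mg/m3 rats, with the groups far apart. The difference was -2.13 ± 0.22 (adjusted p = 5.7e-09), and it set 0.60 mg/m3 below every other group of 4 weeks, since means were 7.20 ± 0.44 in controls, 7.52 ± 0.32 at 0.04, 7.81 ± 0.43 at 0.08 and 7.75 ± 0.19 at 0.15 mg/m3. Slc39a2, the zinc importer ZIP2, was at 5.49, 5.28, 5.96, 5.74 and 5.68 in the 0.60 mg/m3 rats, against 7.34, 7.44, 7.63, 7.54 and 7.07 in the 0.15 mg/m3 rats, without overlap (difference -1.77 ± 0.19, adjusted p = 1.98e-08). It was the only 1 of 23 metal-binding and transport genes called (4.35%, against 2.87% of all genes). The metallothionein Mt2A, at 8.54 ± 0.23 at 0.60 mg/m3 against 8.06 ± 0.22 at 0.15 mg/m3, and the importer Slc39a8, at 8.83 ± 0.15 at 0.60 mg/m3 against 8.44 ± 0.12 at 0.15 mg/m3, were not called. Cth, which makes cysteine from cystathionine, fell by 0.67 ± 0.15 (adjusted p = 0.00401) and the secreted phospholipase Pla2g2d by 0.92 ± 0.20 (adjusted p = 0.00397).

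Stress and energy genes gave scattered rises. Of 32 genes of the unfolded protein and integrated stress response 4 were higher (2 with arrays centred on their median) and 0 lower (median 0.09). The share called was 12.5%, against 2.87% of all genes. The stress factor Ddit3 was at 8.02, 7.99, 8.41, 8.16 and 8.14 in the 0.60 mg/m3 rats, against 7.44, 7.71, 7.50, 7.23 and 7.19 in the 0.15 mg/m3 rats. Its partner Atf3 was at 7.49, 7.45, 8.08, 7.65 and 7.49 in the 0.60 mg/m3 rats, against 6.87, 7.02, 7.04, 6.85 and 6.86 in the 0.15 mg/m3 rats. Neither gene overlapped between groups, and the differences were 0.73 ± 0.13 (adjusted p = 0.000309) and 0.70 ± 0.11 (adjusted p = 4.67e-05). The other calls, the amino acid transporter Slc7a5 and the secreted Manf, were lost without any 1 of 6 and of 8 arrays, and the count was 2 without replicate 3 or 5 of 0.60 mg/m3 or replicate 1, 4 or 5 of 0.15 mg/m3. Of 19 genes of glycolysis and lactate export 4 were higher (21.1% called, against 2.87% of all genes, median 0.16). Slc16a3, the lactate exporter MCT4, was at 8.01, 7.76, 8.69, 7.88 and 8.36 in the 0.60 mg/m3 rats, against 7.03, 7.17, 7.40, 6.96 and 7.01 in the 0.15 mg/m3 rats, without overlap (difference 1.02 ± 0.18, adjusted p = 0.000211), and the enolase Eno2 rose by 0.73 ± 0.15 (adjusted p = 0.00144). That count was 2 without replicate 3 of 0.60 mg/m3 or replicate 2 of 0.15 mg/m3. Of 27 targets of the hypoxia-inducible factor, which nickel is known to stabilise in cultured cells, 3.7% were called, against 2.87% of all genes. This list does not hold the 4 glycolysis and lactate export genes called above, so its share does not cover them. Of the 27, Egln3 alone was called (1.10 ± 0.24, adjusted p = 0.00295). It encodes an oxygen-sensing prolyl hydroxylase, and the targets Vegfa and Slc2a1 were at 10.30 ± 0.07 at 0.60 mg/m3 against 10.14 ± 0.11 at 0.15 mg/m3 and at 8.75 ± 0.14 at 0.60 mg/m3 against 8.56 ± 0.14 at 0.15 mg/m3.

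Matrix genes were called in 3 of 44 cases (6.82%, against 2.87% of all genes), all higher, with a median of 0.09. Beside Mmp12 these were Mmp7 and fibronectin. Mmp7, the protease matrilysin of injured epithelium, was at 5.19, 4.87, 6.05, 4.77 and 5.28 in the 0.60 mg/m3 rats, against 3.76, 4.50, 3.83, 3.37 and 3.63 in the 0.15 mg/m3 rats. Replicate 3 of 0.60 mg/m3 was highest, and the difference of 1.41 ± 0.15 (adjusted p = 1.52e-08) parted the groups fully. Fibronectin, Fn1, rose by 0.53 ± 0.14 (adjusted p = 0.0271), lost without any 1 of 5 arrays. Col16a1, a collagen that is no member of the list, was at 9.14, 9.32, 9.76, 9.39 and 9.29 in the 0.60 mg/m3 rats, against 8.19, 8.42, 8.32, 8.16 and 8.07 in the 0.15 mg/m3 rats. Its 0.15 mg/m3 mean of 8.23 ± 0.14 lay beside 8.08 ± 0.17 in the controls, and the difference of 1.15 ± 0.11 (adjusted p = 9.08e-10) stands beside one of 0.16 from control to 0.15 mg/m3 (adjusted p = 0.586). The fibrillar collagens Col1a1 and Col3a1 were not called, at 9.44 ± 0.10 at 0.60 mg/m3 against 9.06 ± 0.27 at 0.15 mg/m3 and at 12.32 ± 0.09 at 0.60 mg/m3 against 12.18 ± 0.10 at 0.15 mg/m3. Stra6l, a receptor for retinol-binding protein in mice, rose by 1.32 ± 0.15 (adjusted p = 1.01e-07), Rarres1, a gene induced by retinoids, by 0.82 ± 0.18 (adjusted p = 0.00535) and the small GTPase Rasd2 by 1.17 ± 0.15 (adjusted p = 7.57e-07). The second probe set of Rasd2 gave 0.22. Rarres1 was the only gene called higher among 23 of retinoid metabolism, a list with a median of -0.08 that does not hold Stra6l. In either direction 13% of that list was called, against 2.87% of all genes. Its 2 calls in the other direction were Rbp4, the retinol carrier of blood (-0.60 ± 0.15, adjusted p = 0.0123), and Aldh1a1, which makes retinoic acid (-0.32 ± 0.08, adjusted p = 0.0253). That lower count was 0 without replicate 3 of 0.60 mg/m3 and 1 without its replicate 5 or without replicate 2, 3 or 5 of 0.15 mg/m3.

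Cell division and cholesterol synthesis, which parted 0.15 mg/m3 from the controls, gave no call in the step to 0.60 mg/m3. The steps share the 0.15 mg/m3 arrays, and their values are set side by side. Over all genes, 1.92% were higher at 0.15 mg/m3 than in controls, and 2.87% were called between 0.60 and 0.15 mg/m3. Among 47 G2/M and mitotic genes, 32 were higher at 0.15 mg/m3 than in controls (median 0.80), and 0 were called between 0.60 and 0.15 mg/m3 (median 0.11). The proliferation marker Mki67 was at 6.64 ± 0.43 at 0.60 mg/m3 against 6.24 ± 0.30 at 0.15 mg/m3, with a 95% interval of -0.10 to 0.89 for the difference. The kinase Cdk1 was at 8.11 ± 0.25 at 0.60 mg/m3 against 8.02 ± 0.19 at 0.15 mg/m3, with an interval of -0.30 to 0.50. Cholesterol synthesis went likewise, with 11 of 19 genes higher at 0.15 mg/m3 than in controls (median 0.46) and 0 called in the further step (median 0.08, with 18 of 19 positive). Idi1, the isopentenyl diphosphate isomerase, was at 10.02 ± 0.18 at 0.60 mg/m3 against 9.99 ± 0.21 at 0.15 mg/m3 (interval -0.33 to 0.38). The intervals leave room for a rise or a fall of these sizes.

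Among the single genes with the largest rises from control to 0.15 mg/m3 that were not called further, Ptges, the inducible prostaglandin E synthase, differed by 3.05 from control and by 0.44 ± 0.23 in the further step (interval -0.03 to 0.91). Retnla, a secreted protein of type 2 inflammation, differed by 2.81 and 0.60 ± 0.27 (interval 0.06 to 1.14), and the cyclin-like Ccno of multiciliated cells by 1.98 and 0.04 ± 0.24 (interval -0.45 to 0.52). The inducible cyclooxygenase Ptgs2 was at 7.22, 7.39, 6.68, 7.34 and 6.99 in the 0.60 mg/m3 rats, against 7.20, 6.84, 6.90, 7.18 and 7.25 in the 0.15 mg/m3 rats, with mixed groups and an interval of -0.45 to 0.55. In Ptges and Retnla all 0.60 mg/m3 rats lay above all 0.15 mg/m3 rats although this test was not passed. Both genes were called in a model of the compared arrays alone (adjusted p = 0.0137 for Ptges and 0.000952 for Retnla), and Retnla also with array weights and in a model of the 4-week arrays alone. Falls of the same kind were those of Scin, an actin-severing protein (-2.06 and -0.59 ± 0.24, interval -1.08 to -0.11), the uroplakin Upk1a (-1.66 and -0.41 ± 0.21, interval -0.83 to 0.02) and the glutathione transferase Gstm2 (-1.04 and -0.11 ± 0.17, interval -0.45 to 0.24).

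**Figure D3:**
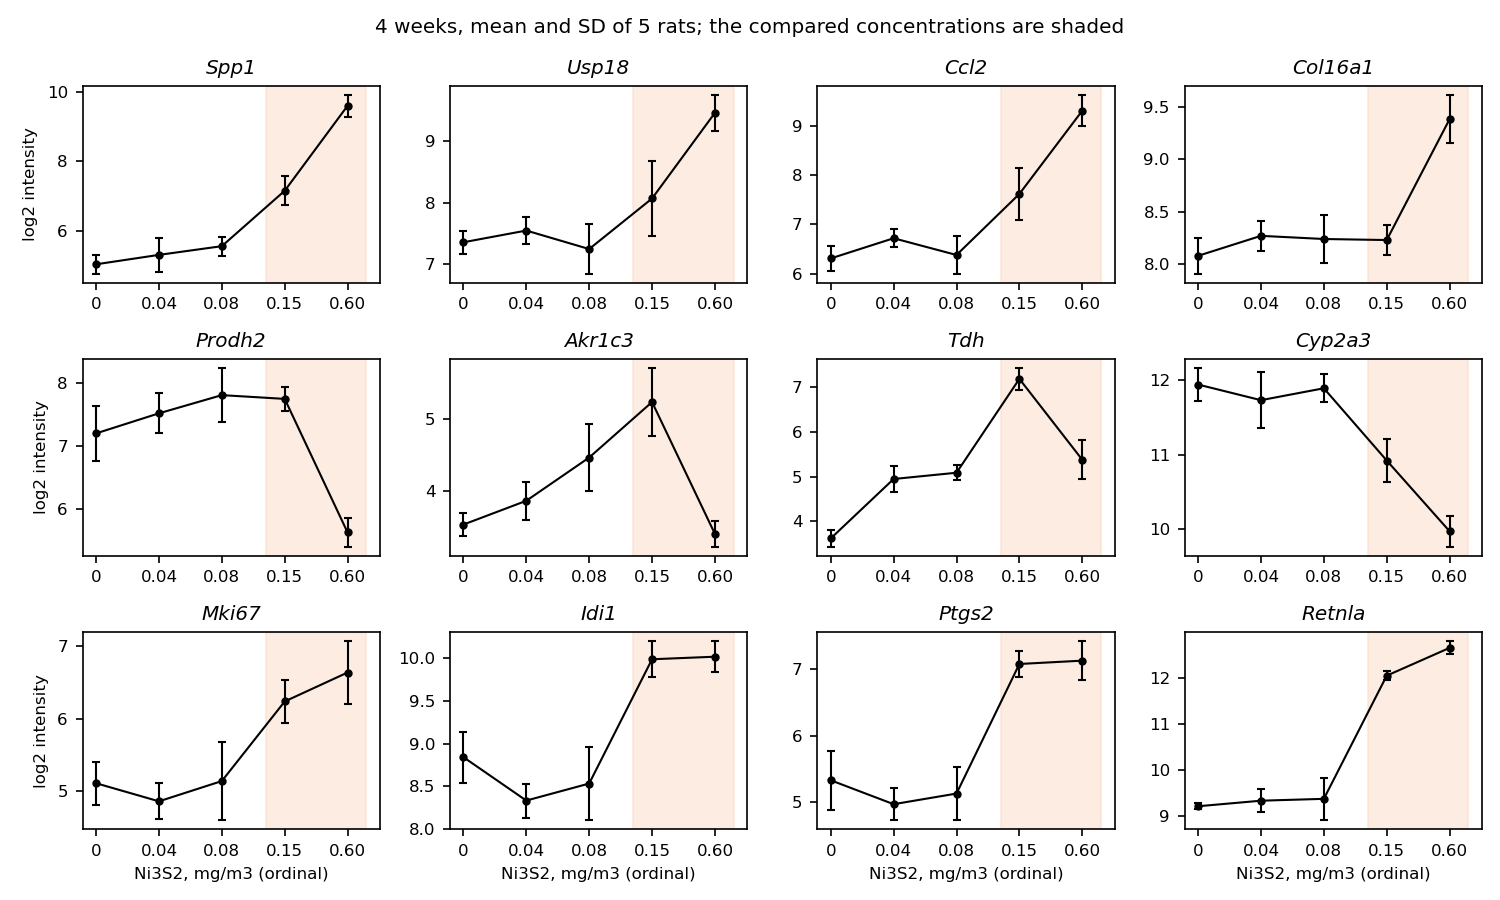
Mean log2 intensity (vertical axes, bars are the SD of 5 rats) of 12 genes at 4 weeks against the Ni3S2 concentration in mg/m3 (horizontal axes, ordinal spacing), with 0.15 and 0.60 mg/m3 shaded. Spp1 and Ccl2 climb from 0.15 mg/m3, Col16a1 and Prodh2 leave the line at 0.60 mg/m3, Akr1c3 and Tdh peak at 0.15 mg/m3, and Idi1 and Ptgs2 lie above the controls at both 0.15 and 0.60 mg/m3.

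The 0.08 and 0.04 mg/m3 groups of that series stood apart: 2494 genes (18.6%) differed between 0.15 and 0.08 mg/m3 at 4 weeks, and muscle genes were among those higher in the lower exposures. The muscle gene Des was at 7.41 ± 0.11 in controls, 9.12 ± 0.23 at 0.04, 8.97 ± 0.65 at 0.08, 7.35 ± 0.17 at 0.15 and 7.34 ± 0.33 at 0.60 mg/m3. The part of muscle in the dissected tissue of those groups was not tested. Between 0.60 and 0.15 mg/m3 Des differed by 0.00 ± 0.23.

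A few genes turned. Genes called from control to 0.15 mg/m3 and called in the opposite direction from 0.15 to 0.60 mg/m3 numbered 5, all of them first higher and then lower. Both differences use the same 0.15 mg/m3 arrays with opposite sign. A deviation of those arrays alone would move them in opposite directions, so the 2 calls are not separate tests. Akr1c3, an aldo-keto reductase of steroids and prostaglandins, was at 3.14, 3.29, 3.56, 3.49 and 3.54 in the 0.60 mg/m3 rats, against 4.85, 5.47, 5.55, 5.65 and 4.62 in the 0.15 mg/m3 rats. It was far lower at 0.60 mg/m3 (-1.82 ± 0.20, adjusted p = 2.25e-08), back among the controls at 3.53 ± 0.16, after a rise of 1.70 at 0.15 mg/m3. Tdh, the mitochondrial threonine dehydrogenase, was at 6.11, 5.33, 4.95, 5.34 and 5.17 in the 0.60 mg/m3 rats, against 7.42, 6.79, 7.35, 7.19 and 7.21 in the 0.15 mg/m3 rats. Its fall of 1.81 ± 0.21 (adjusted p = 1.01e-07) took back part of the rise of 3.57 from the control mean of 3.62 ± 0.19. The others were the T cell inhibitor Vtcn1 (-0.52 ± 0.15, adjusted p = 0.0498), Fam167a (-0.40 ± 0.11, adjusted p = 0.0344) and the mitotic inhibitor kinase Wee1 (-0.29 ± 0.07, adjusted p = 0.0118). Their calls were lost without any 1 of 9, of 7 and of 1 of the 10 arrays, for Wee1 replicate 3 of 0.60 mg/m3 (-0.26, adjusted p = 0.0599).

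**Figure D4:**
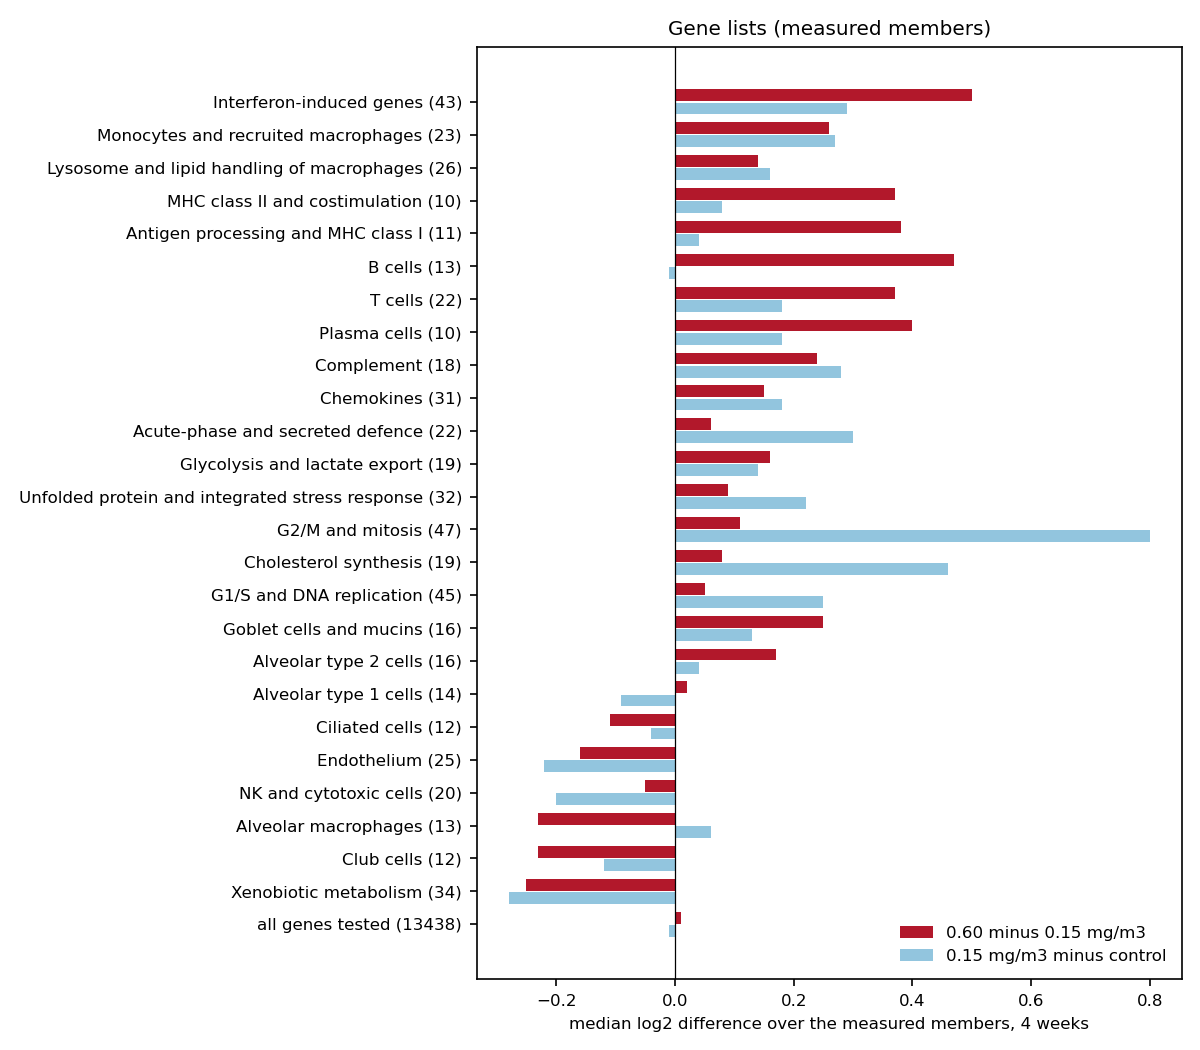
Median log2 difference of the measured members (horizontal axis) for 25 gene lists and for all genes, at 0.60 minus 0.15 mg/m3 (red) and 0.15 mg/m3 minus control (light blue) at 4 weeks, with the number of measured genes in parentheses. The comparisons share the 0.15 mg/m3 arrays. Mitosis has a median of 0.11 against 0.80 in the earlier step, and interferon-induced genes 0.50 against 0.29.

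Of the 53 lists, 16 had a median difference above 0.1. Lists of basic functions gave no call, against 2.87% of all genes. Their medians were -0.04 over 33 oxidative phosphorylation genes, 0.02 over 18 ribosomal protein genes and 0.01 over 28 proteasome genes. No gene was called either among 45 of G1/S and DNA replication (median 0.05), where Pcna was at 10.92 ± 0.09 at 0.60 mg/m3 against 10.93 ± 0.04 at 0.15 mg/m3, among 17 p53 targets (median 0.03), where Cdkn1a was at 8.11 ± 0.19 at 0.60 mg/m3 against 8.35 ± 0.13 at 0.15 mg/m3, among 16 of the circadian clock (median 0.00), among 11 of dendritic cells (median 0.17) or among 16 of skeletal muscle (median -0.02). The lists held 111 of the 385 called genes, and 274 were in none.

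After 1 week the same concentrations differed in few genes. In other rats, 5 at 0.60 mg/m3 and 5 at 0.15 mg/m3 exposed for 1 week, 2 genes were called (0.0149%), 1 higher and 1 lower (0.00744% each), with 867 at an unadjusted p under 0.05. Cyp2a3 averaged 10.59 at 0.60 mg/m3 and 11.54 at 0.15 mg/m3, a difference of -0.95 ± 0.18 (adjusted p = 0.0297) beside -0.95 ± 0.18 at 4 weeks. Its groups overlapped at 1 week, unlike at 4 weeks. Without any 1 of 7 of the 10 arrays no gene was called lower. Traip, a ubiquitin ligase of DNA replication, averaged 4.25 at 0.60 mg/m3 and 3.64 at 0.15 mg/m3, a difference of 0.60 ± 0.10 (adjusted p = 0.0046), which was lost without replicate 1 of the 0.15 mg/m3 rats (0.50, adjusted p = 0.0844), and was not called at 4 weeks (-0.03 ± 0.10). All 5 arrays at 0.60 mg/m3 lay above all 5 at 0.15 mg/m3 for 175 genes (1.3%) and below them for 82 (0.61%) at 1 week. Both exposed groups differed from the 1-week controls in most genes, 65.1% at 0.60 mg/m3 and 67.4% at 0.15 mg/m3. At 4 weeks the share was 3.5% for 0.15 mg/m3 against its controls. Both 1-week shares rest on the same 5 control arrays, and an effect of exposure cannot be told apart here from a deviation of those arrays. The 257 genes called higher at 4 weeks had a median of 0.54 there and of 0.07 at 1 week, where 184 of them (71.6%) were positive, as were 55.5% of all genes. The 128 called lower had medians of -0.59 and -0.12, with 103 (80.5%) negative at 1 week, against 44.5% of all genes. The interferon-induced list had a median of -0.03 at 1 week, the monocyte list 0.03 and the club cell list -0.11.

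The difference between the times was tested itself and called for 29 genes (0.216%), with 1159 at an unadjusted p under 0.05. Taken as 4 weeks minus 1 week, it was positive for 20 of them (0.149%) and negative for 9 (0.067%). A negative value can also come from a rise at 1 week, as for Traip (-0.63). The 29 calls were 12 to 19 without any 1 of 11 of the 20 arrays, and lowest without replicate 1 of 0.15 mg/m3 at 4 weeks. Prodh2 led, with -2.33 ± 0.31 (adjusted p = 2.47e-05), where its difference was -2.13 ± 0.22 at 4 weeks and 0.19 at 1 week. Akr1c3 (-1.78 ± 0.28, adjusted p = 0.000429), Cxcr1 (-1.75 ± 0.34, adjusted p = 0.00803), Cd200r1l (-1.69 ± 0.24, adjusted p = 4.25e-05), Slc39a2 (-1.66 ± 0.27, adjusted p = 0.000645) and Tdh (-1.42 ± 0.30, adjusted p = 0.0205) fell at 4 weeks with differences from -0.39 to -0.05 at 1 week. Upward, Mmp7 (1.27 ± 0.21, adjusted p = 0.000821), Stra6l (1.32 ± 0.22, adjusted p = 0.000656) and Col16a1 (1.08 ± 0.15, adjusted p = 4.34e-05) passed, as did Rasd2 (1.12 ± 0.21, adjusted p = 0.00593). The tests for Ccl2 (1.55 ± 0.32, adjusted p = 0.018), Lilrb4 (1.52 ± 0.32, adjusted p = 0.021) and Usp18 (1.30 ± 0.30, adjusted p = 0.0428) passed too, but those calls were lost without any 1 of 3, of 6 and of 16 of the 20 arrays. For Ccl2 these were replicate 1 of 0.60 mg/m3 and replicate 3 of 0.15 mg/m3 at 1 week and replicate 1 of 0.15 mg/m3 at 4 weeks (1.41 to 1.45, adjusted p = 0.0529 to 0.0592). Spp1 (1.71 ± 0.43, adjusted p = 0.0742) and Gsta3 (-0.59 ± 0.25, adjusted p = 0.472) were not called by this test.

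**Figure D5:**
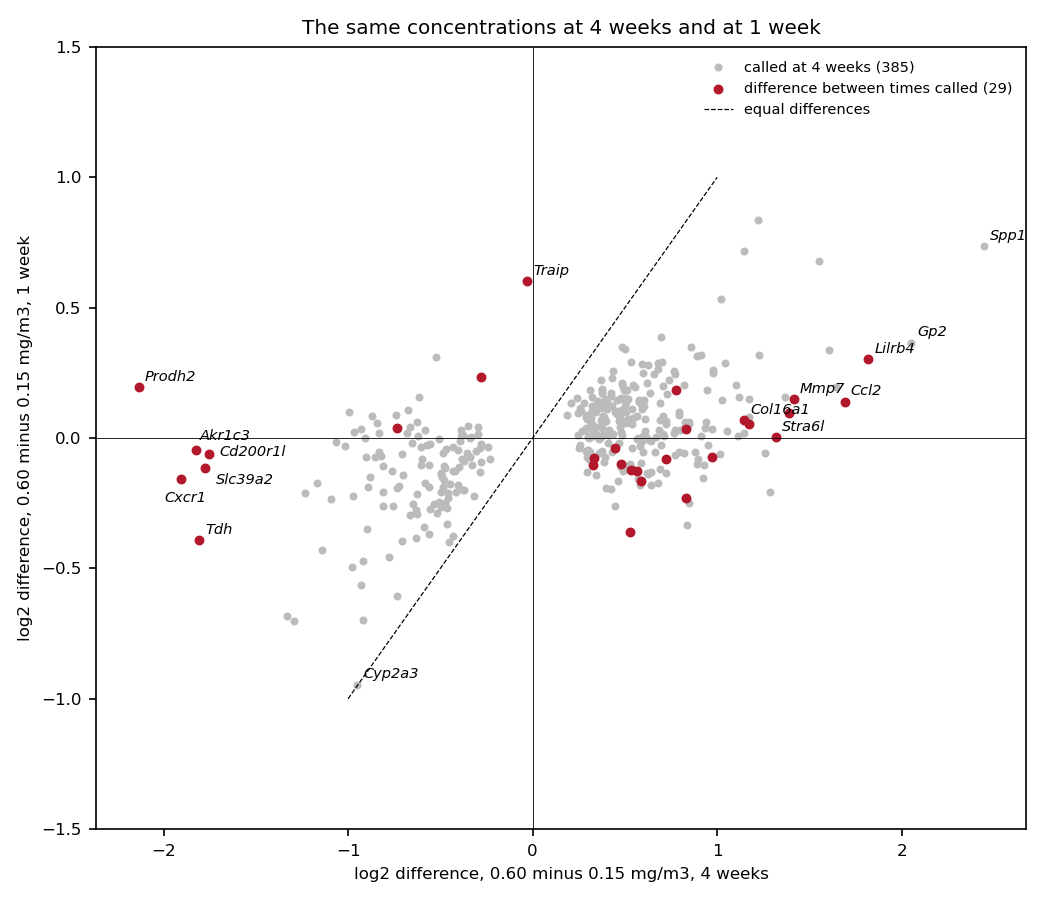
Log2 difference of 0.60 minus 0.15 mg/m3 at 4 weeks (horizontal axis) and at 1 week (vertical axis) for the 385 genes called at 4 weeks (grey) and the 29 genes whose difference between the times was called (red). The dashed line marks equal differences. Cyp2a3 lies on it at -0.95, Prodh2 is at -2.13 and 0.19, and most points lie near 0 at 1 week.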

How the data were processed

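Lung RNA of 50 rats was measured on Affymetrix HT rat arrays, 1 rat per array, in 10 groups of 5. The authors deposited log2 intensities made with RMA in Partek, per the submitters' processing notes. Software versions and scan batches were not given in the sources used here. Deposited values ran from 2.22 to 13.8 with array medians from 5.25 to 5.61, and any pair of arrays differed in at least 31031 of 31042 probe sets. They were used as deposited. Probe sets with 1 symbol in the platform's gene table (19063) were kept, those with several (572) or none (11407) were not, and 18983 matched a current rat gene by identifier. Where several named a gene (3985 genes), the brightest on average was taken.

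A linear model with 1 mean per group was fitted to all 50 arrays with limma 3.58.1 in R 4.3.3, with eBayes, two-sided tests and Benjamini-Hochberg adjustment over 13438 genes within a comparison. On simulated data with 100 genes changed by 0.5 and 100 by 1 on the log2 scale, up or down in turn, it recovered 78% and 99%. It also called 14 unchanged genes. The simulated noise was drawn for each gene separately, so rats in which many genes shift together were not simulated. Gene lists (53, with 1334 symbols, 1076 measured) are described by counts and medians without a set test. Members and lists were chosen with earlier results of these data known. Named genes are the 15 largest rises and falls among called genes whose arrays did not overlap, up to 5 in each direction at 1 week and between the times, genes that turned or were called at 0.15 mg/m3 only, and up to 6 called and 3 defining members per list. Promoters come from RefSeq (GRCr8). The replicate numbers of the groups did not pair the rats. Alternatives were array weights, filters, scalings, probe set choice, a replicate block, smaller models, a minimum change and the omission of each array. Lavage, histology and nickel burden were not used here.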

Additional observations from a re-analysis of the deposited data

Results flagged for a closer look

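Single rats lay far from the rest of their group, by a gap to the nearest value above 0.71 of the range of the 5, in 14 of the 278 groups formed by the named genes at 0.60 and at 0.15 mg/m3. Chance flags about 1 in 20 groups. Replicate 5 of 0.15 mg/m3 was lowest for 5 genes: Mmp12 (0.712 of the range), Pla2g2d (0.797), Prg2 (0.724), Spic (0.741) and Csf1r (0.76). Replicate 4 of 0.15 mg/m3 was highest for the B cell gene Cd79b (0.737) and lowest for fibronectin, Fn1 (0.786). Replicate 2 of 0.15 mg/m3, which stood apart on the second principal component, was lowest for Idi1 (0.882) and RT1-DMa (0.725). At 0.60 mg/m3, replicate 3 was highest for Ccl3 (0.915), Hmox1 (0.805) and Abca3 (0.743), and replicate 5 for C1qa (0.831) and Ms4a6a (0.756). Among the list means, replicate 3 of 0.60 mg/m3 was highest for alveolar macrophages (0.844) and replicate 1 of 0.15 mg/m3 lowest for goblet cells and mucins (0.731).

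The difference between 0.60 and 0.15 mg/m3 itself differed between 4 weeks and 1 week, by limma with an adjusted p under 0.05, for named genes in both directions. The difference at 4 weeks minus that at 1 week was -2.33 for Prodh2, -1.78 for Akr1c3, -1.75 for Cxcr1, -1.69 for Cd200r1l, -1.66 for Slc39a2, -1.42 for Tdh and -0.63 for Traip. It was 1.55 for Ccl2, 1.52 for Lilrb4, 1.32 for Stra6l, 1.30 for Usp18, 1.27 for Mmp7, 1.12 for Rasd2 and 1.08 for Col16a1.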

How the results depend on the processing

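The 385 calls at 4 weeks were 360 without the dimmest 25% of genes, 380 with arrays centred on their median, 383 with quantile normalization or an intensity trend, 394 with the mean of a gene's probe sets and 439 over all probe sets with 1 symbol. They rose to 1360 with array weights, 707 in a model of the compared arrays alone and 785 in a model of the 4-week arrays alone, and were 12 under a test for a change of more than 1.5-fold; the cause of the larger counts was not tested. Without 1 array they ranged from 249 to 359. The 2 calls at 1 week became 180 with array weights, 1 without dim genes, 0 in a model of the compared arrays or of the 1-week arrays alone, 0 under the minimum change, and 0 to 7 without 1 array. The 29 calls between the times became 662 with array weights, 19 without dim genes, 94 in a model of the compared arrays alone, 49 over all probe sets, 1 under the minimum change, and 12 to 38 without 1 array.

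Of 128 named results, 72 kept direction and side of the threshold under every alternative and 51 lost a call under at least 1. Ptges and Retnla gained one, in a model of the compared arrays alone (adjusted p = 0.0137 for Ptges and 0.000952 for Retnla). With arrays kept, calls were lost for 11 under centring, 7 under quantile normalization, 15 with the compared arrays alone, 6 with the arrays of the same time alone and 3 with the mean of probe sets. Those with the compared arrays alone included Cxcl10, Ifit3, Oasl, Il1rn, Jchain, Cr2 and Traip. Reversed values came from uncalled genes near 0 with 1 array left out: Ccno ranged from -0.105 to 0.148, negative without replicate 1 of 0.60 mg/m3, Gstm2 from -0.356 to 0.004, positive without replicate 5 of 0.15 mg/m3, and Ptgs2 from -0.017 to 0.163, negative without replicate 2 or 4 of 0.60 mg/m3 or replicate 2 of 0.15 mg/m3.

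Same-numbered rats did not deviate together (correlations of deviations from the group means from -0.18 to 0.10, with 0 of 5 best with their own number), so the numbers were not used as pairs. With a replicate block, 371 genes were called at 4 weeks, 1 at 1 week (Traip) and 23 between the times, and the calls of Abca3, Aqp3, Ldha, Pparg and Vtcn1 were lost.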

Other observations

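The largest changes among called genes of no list, chosen after their values were seen, included secreted and membrane proteins. Bpifb2, a secreted lipid-binding protein of the BPI fold family, was at 4.95 ± 0.31 at 0.60 mg/m3 against 3.80 ± 0.07 at 0.15 mg/m3, a difference of 1.14 ± 0.16 (adjusted p = 4.32e-06). Slamf9, a leukocyte surface receptor, differed by 1.12 ± 0.18 (adjusted p = 0.000109), and Kcnn4, a calcium-activated potassium channel of lymphocytes and macrophages, by 1.04 ± 0.18 (adjusted p = 0.000152). C4bpa, a regulator of the complement component C4b, was at 10.76 ± 0.28 at 0.60 mg/m3 against 9.79 ± 0.17 at 0.15 mg/m3, a difference of 0.97 ± 0.21 (adjusted p = 0.00303), and Ifi27l2b, of a family of interferon-induced membrane proteins, was at 12.35 ± 0.22 at 0.60 mg/m3 against 11.37 ± 0.40 at 0.15 mg/m3, a difference of 0.98 ± 0.12 (adjusted p = 5.86e-07). Arrays of the groups did not overlap for any of these 5 genes.

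The larger falls outside the lists included transporters, enzymes and a hormone precursor. Slc47a1, an exporter of organic cations, was at 4.09 ± 0.21 at 0.60 mg/m3 against 5.07 ± 0.19 at 0.15 mg/m3, a difference of -0.97 ± 0.16 (adjusted p = 7.54e-05), and Slc15a2, a peptide importer, at 7.83 ± 0.24 at 0.60 mg/m3 against 8.73 ± 0.08 at 0.15 mg/m3, a difference of -0.90 ± 0.13 (adjusted p = 8.65e-06). Calca, the precursor of calcitonin and of the peptide CGRP of neuroendocrine cells and sensory nerves, was at 5.35 ± 0.19 at 0.60 mg/m3 against 6.28 ± 0.31 at 0.15 mg/m3, a difference of -0.93 ± 0.20 (adjusted p = 0.00377). Pon1, a paraoxonase, fell by 0.93 on the log2 scale and the epoxygenase Cyp2c23 by 0.92. The groups did not overlap for any of these 5 genes either.

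Outside the interferon-induced list, 13 genes called higher carried the core (GAAA, any 2 bases, GAAA, on either strand) in the 300 bases searched. Lgals9, a galectin, was at 7.26 ± 0.22 at 0.60 mg/m3 against 6.32 ± 0.56 at 0.15 mg/m3, a difference of 0.94 ± 0.17 (adjusted p = 0.000396). Parp12, a poly(ADP-ribose) polymerase family member, differed by 0.36 ± 0.09 (adjusted p = 0.0116), and Epsti1, a gene of interferon-treated cells, by 0.61 ± 0.14 (adjusted p = 0.00884). The others included Sp110, Psmb8, RT1-S3 and the homeobox gene Irx3.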
